A study of Mus musculus with 16 samples.

Results

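The genes described here are 10 transcription regulators by which mouse astrocytes are recognised and kept in their state: Sox9, Sox2, Nfia, Nfib, Nfix, Id3, Hes5, Lhx2, Npas3 and Zbtb20. They were chosen by name, matched to Ensembl identifiers of the reference annotation, and all 10 were found among the 48795 identifiers of the count table. SOX9 and the NFI proteins switch neural progenitors from making neurons to making glia and stay on in mature astrocytes, while SOX2 is shared by progenitors and many glia. HES5, the main readout of Notch signalling, and ID3, a readout of BMP signalling, hold back the basic helix-loop-helix proteins that drive neurons. LHX2, NPAS3 and ZBTB20 are a LIM homeodomain protein, a bHLH-PAS protein and a zinc finger repressor known from astrocytes or their progenitors, and several of the 10, among them NFIB, NFIX and ZBTB20, are also made by neurons.

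All 8 mice were young adult CAG-Cas9-EGFP animals, which carry Cas9 and EGFP in every cell, and all received in the central striatum of both hemispheres an AAV2/5 with Rpl22-HA, a tagged ribosomal protein, under the astrocyte promoter GfaABC1D. The 4 Crym KO mice also received an AAV2/5 with guide RNAs against Crym, the gene of the thyroid hormone-binding protein μ-crystallin, and the 4 Control mice (called wild type in the labels) one with a guide RNA against GFP. Both guide viruses also carried mCherry under GfaABC1D, so both groups carried the Cas9-EGFP transgene, the tag and the reporter and differed in the guides. The Control guide can cut the EGFP of these mice, so Control is an edited group and not an unedited one, and the guides were made from a U6 promoter that is not limited to astrocytes. From each mouse 1 library came from the RNA pulled down with the tag (IP) and 1 from a part of the same lysate (Input, bulk striatum), which gave 16 libraries in 4 groups of 4.

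Library totals were 39421209 to 62596661 counts. Crym itself fell in IP by 1.52 on the log2 scale (adjusted p = 0.000514, limma), from 222, 125, 189 and 213 CPM (counts scaled to the corrected library size) in Control IP mice 1 to 4 to 68.6, 66.0, 47.9 and 76.0 CPM in Crym KO IP, with no overlap. Rpl22, whose count adds the mouse gene and the viral tag, was at 350, 342, 280 and 336 CPM in Control IP and at 714, 704, 598 and 496 CPM in Crym KO IP (log2 0.93, adjusted p = 0.00367, limma), and the 2 groups did not overlap. The summed level of 20 astrocyte markers that are not transcription factors was 23400 to 35600 CPM in IP and 7930 to 8520 CPM in Input, and 20 of 20 were higher in IP in each genotype, with medians of 1.93 and 2.13 on the log2 scale. Control IP 2 stood apart as the IP library with the fewest astrocyte transcripts (23400 CPM, against 30400 to 35600 CPM in the other IP libraries). Microglial and endothelial markers summed to at most 50.5 and 15 CPM in IP against at least 478 and 117 CPM in Input, whereas 7 of 8 ependymal, 8 of 12 neuron and 6 of 10 oligodendrocyte markers were called higher in Control IP than in Control Input, beside 36.7% of all genes; the oligodendrocyte markers summed to 5070 to 7570 CPM in Control IP and 4860 to 6060 CPM in Control Input. Across genes, deviations from the group means in Crym KO IP 3 correlated less with the Input labelled as the same mouse (r 0.232) than with Input 4 (0.533). Over autosomes alone r was -0.135 with the Input of the same label and 0.348 with Input 4. Whether the label is right was not tested, so values per mouse are given below without Crym KO mouse 3 where they change. In all that follows, more cells of a type and more RNA per cell cannot be told apart.

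The first question was how far the tagged ribosomes of astrocytes were enriched in the mRNAs of these factors. In Control mice 8 of 10 factors rose in IP over Input past an adjusted p of 0.05 (limma over 20645 genes), beside 36.7% of all genes, and 0 of 10 were lower, beside 38.5%. In Crym KO mice 10 of 10 rose, beside 36.2% of all genes, and 0 of 10 were lower, beside 37.9%. The median log2 ratio was 1.01 in Control and 1.18 in Crym KO, against -0.02 for all genes in both, and the 10 values spread from -0.05 to 2.02 in Control. The counts depend on the scaling for the weakest factors: with upper quartile scaling or library size alone, 7 of 10 were higher and 1, Nfix, was lower in Control, and 9 of 10 were higher in Crym KO. The main limma fit did not pair the IP and Input of a mouse. With a block for the mouse, 9 of 10 were higher in Control and 10 of 10 in Crym KO.

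**Figure D1:**
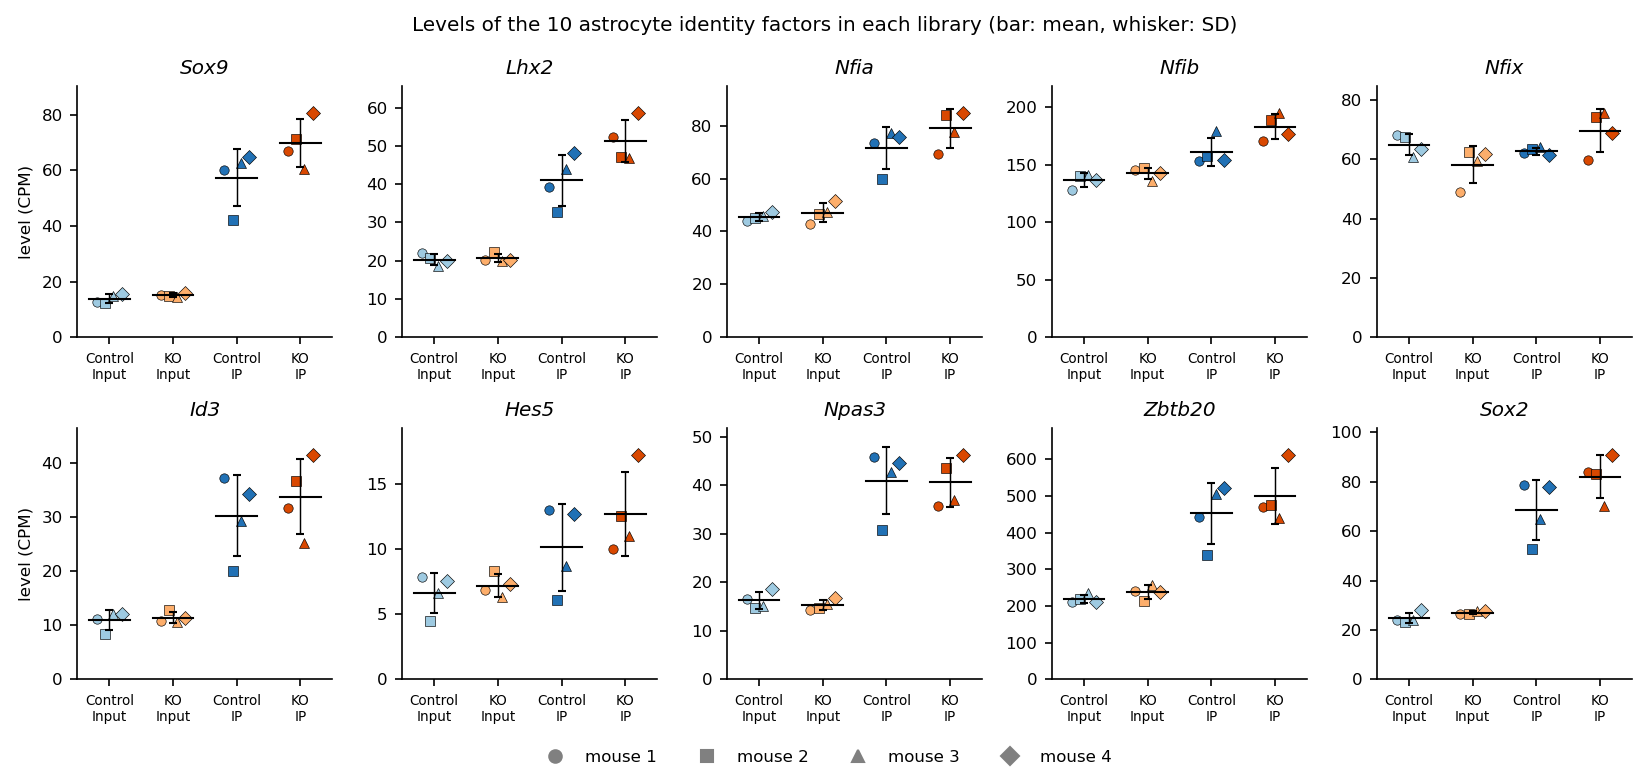
Level of each factor (y axis, CPM, linear and starting at 0) in the 16 libraries by group (x axis); points are mice, marked by number, bars are means of 4 mice and whiskers the SD. Sox9 rose from 12.5 to 16.1 CPM in the 8 Input libraries to 42.2 to 80.7 CPM in IP, while the Nfix points of IP and Input overlap.

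Sox9 (chromosome 11, 112782224 to 112787760, GRCm38, as for all positions here) was the most enriched of the 10. Its levels in Control Input were 12.8, 12.5, 15 and 15.4 CPM in mice 1 to 4, and in Control IP 60.1, 42.2, 62.6 and 64.8 CPM. In Crym KO mice Input held 15.1, 14.9, 14.5 and 16.1 CPM and IP 67.1, 71.2, 60.4 and 80.7 CPM. The IP and Input ranges were far apart in both genotypes, and Control IP 2 was the lowest IP library. The log2 ratio of IP over Input was 2.02 ± 0.14 (SE) in Control (adjusted p = 1.34e-09) and 2.20 ± 0.14 in Crym KO (adjusted p = 3.97e-10), higher than that of 98.8% of the genes tested in Control, and every mouse lay between 1.75 and 2.32.

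Sox2, a single-exon gene on chromosome 3 (34650405 to 34652461), was at 78.7, 52.8, 65.0 and 77.9 CPM in Control IP and at 84.1, 83.1, 70.4 and 90.9 CPM in Crym KO IP. In Input it was at 24.1, 23.4, 23.9 and 28.0 CPM in Control and at 26.5, 26.4, 27.6 and 27.7 CPM in Crym KO. Both genotypes were enriched without overlap, by 1.45 ± 0.11 and 1.60 ± 0.11 on the log2 scale (adjusted p = 8.35e-09 and 2.17e-09, limma). Sox2 lies inside Sox2ot, a non-coding transcript of the same strand with which the annotation shows no shared exon; Sox2ot was at 27.9 to 45.3 CPM in IP and at 42.0 to 54.7 CPM in Input, and the IP range of this host transcript reached lower than its Input range.

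The 3 NFI genes, which encode closely related proteins that bind the same DNA motif, were enriched to different degrees. Nfia (chromosome 4, 97772734 to 98118874) was at 73.4, 60.0, 77.1 and 75.8 CPM in Control IP against 43.9, 45, 45.9 and 47.3 CPM in Control Input. In Crym KO mice it was at 69.1, 84.2, 77.6 and 84.8 CPM in IP and at 42.7, 46.6, 47.5 and 51.6 CPM in Input. Its IP and Input libraries did not overlap, with log2 ratios of 0.64 ± 0.08 and 0.75 ± 0.08 (adjusted p = 1.97e-06 and 3.47e-07, limma).

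Nfib (chromosome 4, 82290173 to 82705750) was close to even between the fractions, at 153, 158, 179 and 154 CPM in Control IP and 128, 140, 141 and 137 CPM in Control Input. In Crym KO it was at 171, 189, 195 and 177 CPM in IP and 145, 147, 136 and 143 CPM in Input. The ratio was small but positive in 8 of 8 mice (0.17 to 0.52 on the log2 scale), at 0.24 ± 0.05 in Control (adjusted p = 0.000792, limma) and 0.36 ± 0.05 in Crym KO (adjusted p = 1.72e-05). The Control call was lost with upper quartile scaling (0.08, adjusted p = 0.205) and with library size alone (0.05, adjusted p = 0.423), under which the median of all genes moved to -0.18 and -0.22.

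Nfix (chromosome 8, 84699876 to 84800344) was not enriched in Control mice, where IP held 62.0, 63.4, 64.0 and 61.4 CPM and Input 68.0, 67.6, 60.6 and 63.6 CPM (log2 -0.05 ± 0.08, adjusted p = 0.576, limma). In Crym KO mice IP held 59.8, 74.2, 75.6 and 68.9 CPM and Input 48.9, 62.5, 59.3 and 61.9 CPM, a ratio of 0.26 ± 0.08 (adjusted p = 0.00584). The per-mouse ratios of -0.13 to 0.08 in Control and 0.15 to 0.35 in Crym KO did not overlap, a difference of 0.31 with an exact two-sided permutation p of 0.0286, the smallest that 4 against 4 mice can give. Adjusted over all genes with limma, this difference did not pass (unadjusted p = 0.0112, adjusted p = 1.00), and the Crym KO difference was 0.15 in IP and -0.17 in Input. Input 1 of Crym KO was the lowest of the 16 values. Without Crym KO mouse 1, or without Crym KO mouse 3, no factor passed that exact test, although the Nfix ratios of the genotypes still did not overlap. With fewer mice the test has coarser steps, so the lost pass does not show that the difference rests on that mouse.

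Id3 and Hes5 varied most between mice, with coefficients of variation of 24.8% and 33.1% in Control IP against 1.94% to 18.3% for the other 8. Id3 (chromosome 4, 136143497 to 136145755) was at 37.2, 20.1, 29.3 and 34.3 CPM in Control IP and 11.2, 8.29, 12.1 and 12.1 CPM in Control Input. In Crym KO it was at 31.6, 36.7, 25.3 and 41.5 CPM in IP and 10.7, 12.9, 10.6 and 11.4 CPM in Input. The fractions did not overlap, with ratios of 1.43 ± 0.20 and 1.54 ± 0.20 on the log2 scale (adjusted p = 9.15e-06 and 3.73e-06, limma).

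Hes5 (chromosome 4, 154960923 to 154962371) was at 13.0, 6.06, 8.67 and 12.7 CPM in Control IP and 7.85, 4.47, 6.59 and 7.53 CPM in Control Input. In Crym KO it was at 10, 12.5, 11 and 17.2 CPM in IP and 6.82, 8.33, 6.32 and 7.29 CPM in Input. The ranges overlapped in Control and were apart in Crym KO, where the ratio of 0.80 ± 0.24 passed (adjusted p = 0.00607, limma). In Control the ratio of 0.56 ± 0.25 missed the threshold (adjusted p = 0.0504). With a block for the mouse, which compares the fractions within each animal, it was 0.60 and passed (adjusted p = 0.000447), and edgeR (adjusted p = 0.0226) and DESeq2 (adjusted p = 0.0107) also called it. Of all alternatives run, 13 called it and 21 did not. Of the exon length of Hes5, 31.8% lies opposite exons of the antisense transcript Gm20421, which was at 0.0680 to 0.534 CPM, and whether reads there were counted by strand is not stated.

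Hes5 is the factor whose start region carries the textbook sequence of its pathway, and the region is printed for that reason. The 250 bases before its start (RefSeq, GRCm38.p6, chr4:154960673-154960922, plus strand) hold the RBPJ motif GTGGGAA, bound by the DNA-binding partner of Notch, at 2 places, once on each strand. The 250 bases before the RefSeq start of Sox2 (chr3:34649745-34649994, plus strand), searched for comparison, hold none. That RefSeq start lies upstream of the Sox2 gene start given above (34650405), while for Hes5 the starts are the same. Capitals mark the motif on either strand.
Hes5: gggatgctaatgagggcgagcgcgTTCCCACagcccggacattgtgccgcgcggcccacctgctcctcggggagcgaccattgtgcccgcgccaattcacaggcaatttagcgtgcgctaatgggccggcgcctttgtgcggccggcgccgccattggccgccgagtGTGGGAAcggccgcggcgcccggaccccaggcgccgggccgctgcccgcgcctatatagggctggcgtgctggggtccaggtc
Sox2: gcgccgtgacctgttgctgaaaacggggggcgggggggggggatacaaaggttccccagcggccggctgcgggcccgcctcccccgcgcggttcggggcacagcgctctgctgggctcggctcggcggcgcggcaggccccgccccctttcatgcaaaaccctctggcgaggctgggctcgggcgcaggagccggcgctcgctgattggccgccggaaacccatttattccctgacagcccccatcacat

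RefSeq start regions of 300 bases (250 before the start, 50 after) were at hand for 8 of the 10 factors, 12 regions in all, and Hes5 was the only one of the 8 with GTGGGAA on either strand. Among all 32851 such regions 6.38% held it at least once and 0.256% at 2 or more places. The NFI motif TTGGC stood in at least 1 region of Hes5, Id3, Sox2, Lhx2 and Nfix. Counted per region and not per gene, 46.7% of all regions held it, and genes with several regions, such as Nfix and Lhx2, have more chances of a match. These matches are a description of the letters and show no binding.

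The remaining 3 factors had higher ratios than Nfia. Lhx2 (chromosome 2, 38339281 to 38369733) was at 39.3, 32.6, 44.0 and 48.1 CPM in Control IP and 21.9, 20.6, 18.7 and 20 CPM in Control Input. In Crym KO it was at 52.2, 47.2, 46.9 and 58.6 CPM in IP and 20.3, 22.2, 19.9 and 20.2 CPM in Input. The ratios were 1.00 ± 0.11 and 1.30 ± 0.11 on the log2 scale (adjusted p = 2.68e-07 and 1.04e-08, limma), with Control mice 1 and 2 (0.84 and 0.66) the lowest.

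Npas3 (chromosome 12, 53248677 to 54072175) was at 45.8, 30.8, 42.7 and 44.6 CPM in Control IP and 16.6, 14.8, 15.1 and 18.6 CPM in Control Input. In Crym KO it was at 35.7, 43.6, 36.9 and 46.3 CPM in IP and 14.2, 14.8, 15.5 and 16.8 CPM in Input. IP was above Input in every mouse, by 1.32 ± 0.13 and 1.41 ± 0.13 on the log2 scale (adjusted p = 9.62e-08 and 5.87e-08, limma).

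Zbtb20 (chromosome 16, 42875881 to 43642602) was at 443, 340, 505 and 523 CPM in Control IP and 212, 219, 236 and 210 CPM in Control Input. In Crym KO it was at 471, 476, 441 and 612 CPM in IP and 242, 213, 258 and 239 CPM in Input. The ratios were 1.03 ± 0.12 and 1.06 ± 0.12 on the log2 scale (adjusted p = 6.38e-07 and 4.17e-07, limma), and the fractions did not overlap.

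**Figure D2:**
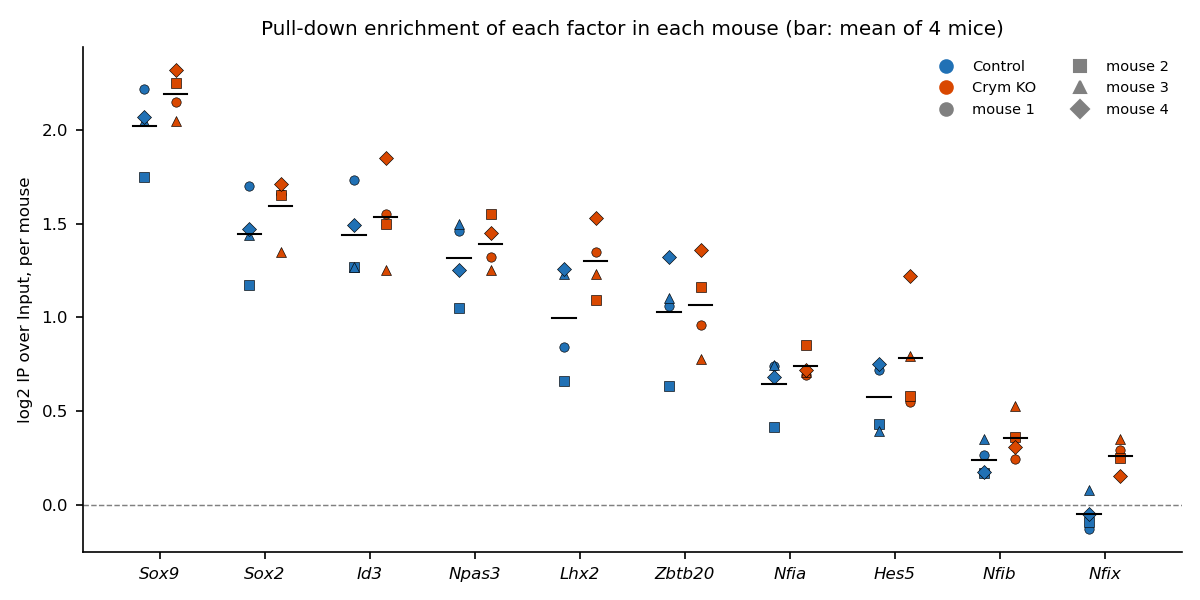
Log2 ratio of IP over Input (y axis) of each factor (x axis, ordered by the mean) in the 4 Control and 4 Crym KO mice; points are mice and bars are means of 4. Sox9 lies at 1.75 to 2.32 and Nfix at -0.13 to 0.35, with its genotypes apart.

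Over the 8 mice together, 9 of 10 factors were higher in IP in 8 of 8 mice (exact two-sided sign-flip p = 0.00781 each, the smallest 8 mice can give), and Nfix in 5 of 8 (p = 0.148). The factors were not enriched alike. Of the 45 pairs of factors, 40 differed in their log2 ratio within the mice (exact two-sided sign-flip tests, adjusted over the 45 pairs, adjusted p at most 0.0176), a comparison from which gene length and library scaling drop out. The 5 pairs that did not pass were Lhx2 with Npas3, Lhx2 with Zbtb20, Nfia with Hes5, Id3 with Npas3 and Id3 with Sox2. The mean ratios ran from Sox9 (2.11 ± 0.18, SD, n = 8 mice) through Sox2 (1.52 ± 0.20), Id3 (1.49 ± 0.22), Npas3 (1.36 ± 0.17), Lhx2 (1.15 ± 0.28), Zbtb20 (1.05 ± 0.25), Nfia (0.69 ± 0.12), Hes5 (0.68 ± 0.26) and Nfib (0.30 ± 0.12) to Nfix (0.11 ± 0.18).

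Exon length here is the union of all annotated exons of a gene (2057 bases for Sox2, 30730 for Zbtb20), which can exceed that of the transcripts made. By CPM alone Zbtb20 was the highest in every group (mean 453 CPM against 68.6 for Sox2 in Control IP). Per length of exon, Sox2 was the most abundant of the 10 in every group. Its mean level was 33.4 CPM per kb in Control IP, 39.9 in Crym KO IP, 12.1 in Control Input and 13.1 in Crym KO Input, each time apart from the next gene. In Control IP the order went on with Id3 (16.9 CPM per kb), Zbtb20 (14.7), Sox9 (13.9), Nfib (10.8), Lhx2 (9.33), Nfix (8.53), Hes5 (7.42), Npas3 (6.82) and Nfia (6.57), and from Id3 down each gene overlapped its neighbour. In Control Input Nfib (9.11 CPM per kb) and Nfix (8.84) came after Sox2, apart from Zbtb20 (7.14), and Sox9 (3.37) and Npas3 (2.71) came last.

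The second question was whether the loss of Crym changed these factors. No factor differed between Crym KO IP and Control IP after adjustment over all genes (0 of 10, beside 0.0339% of all genes, limma), none was called by edgeR or DESeq2, and none had groups without overlap (0 of 10, beside 1.21% of all genes with Crym KO above Control). The values were positive for 9 factors, from 0.14 for Nfia to 0.39 for Hes5 on the log2 scale, and 0.00 for Npas3, with a median of 0.18 against 0.00 for all genes. Without adjustment 4 of 10 had p under 0.05, Lhx2, Nfib, Sox9 and Sox2, as did 7.67% of all genes. For these the differences were 0.33 (95% interval 0.13 to 0.53), 0.18 (0.07 to 0.30), 0.30 (0.06 to 0.53) and 0.27 (0.06 to 0.49), with adjusted p from 0.460 to 0.564. The widest interval was that of Hes5 (-0.07 to 0.84) and that of Npas3 ran from -0.23 to 0.23. Permuting the 4 and 4 mice exactly gave two-sided p of 0.0857 for Lhx2 and Nfib and higher values for the other 8. Equal numbers were of the same sex in both genotypes, but the labels name no matching of mice. Read as pairs of equal number, Lhx2, Nfib and Sox2 were higher in Crym KO IP in 4 of 4 pairs and Nfix was lower in Crym KO Input in 4 of 4, where an exact two-sided test over 4 pairs cannot go below p = 0.125. With the number as a block, limma called none of these (adjusted p = 0.174, 0.162 and 0.233 in IP and 0.468 in Input).

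**Figure D3:**
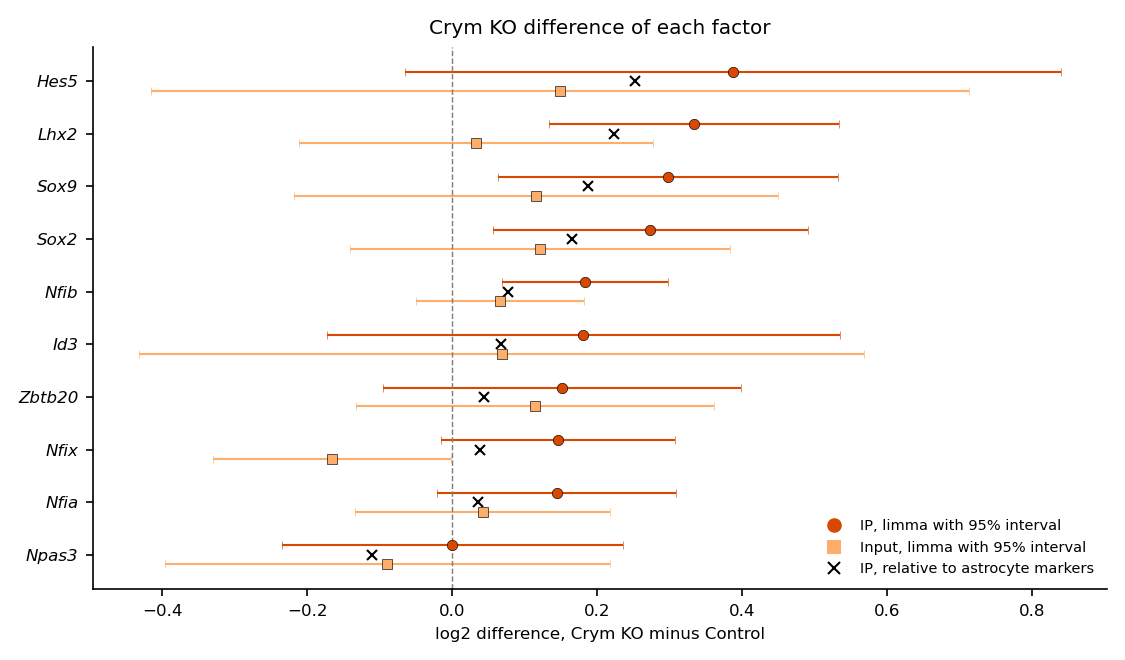
Crym KO minus Control difference (x axis, log2) of each factor (y axis) in IP and Input, with 95% intervals from limma; crosses give the IP difference relative to 20 astrocyte markers of the same library, without an interval. In IP 9 factors lie at 0.14 to 0.39 and Npas3 at 0.00, and the crosses lie to the left of the IP points.

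Much of the spread among the IP libraries was shared by the factors. Control IP 2 was the lowest of the 8 IP libraries for 8 of 10 factors and Crym KO IP 4 the highest for the same 8, the exceptions in both being Nfib and Nfix, and the astrocyte markers had their lowest and highest summed level in the same libraries (23400 and 35600 CPM). By their mean log2 level, used for the comparison relative to the markers, Control IP 2 was also the lowest (8.83), while Crym KO IP 2 (9.35) and Control IP 1 (9.33) were above Crym KO IP 4 (9.30). Hes5 in Control IP 2 lay 0.84 below its mean over the 8 IP libraries on the log2 scale, and Id3 0.64 below. Without Control mouse 2 the exact IP differences ran from -0.14 to 0.23 and 8 were positive, against 9 with it. Taken relative to the mean of the 20 astrocyte markers in the same library, the differences were 0.19 for Sox9 (exact permutation p = 0.114), 0.22 for Lhx2 (p = 0.114), 0.16 for Sox2 (p = 0.0571), 0.25 for Hes5 (p = 0.314) and -0.11 for Npas3 (p = 0.229), and the other 5 lay between 0.04 and 0.08 (0 of 10 with p under 0.05). The 20 astrocyte markers themselves had a median of 0.12 in Crym KO IP against Control IP, 18 of 20 positive and 0 called. The 10 oligodendrocyte markers had a median of -0.35 with 10 of 10 negative, 0 called and summed levels of 5070 to 7570 CPM in Control IP and 3840 to 6000 CPM in Crym KO IP. The part of these markers, and of the Rpl22 level given above, in the differences of the factors was not tested.

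**Figure D4:**
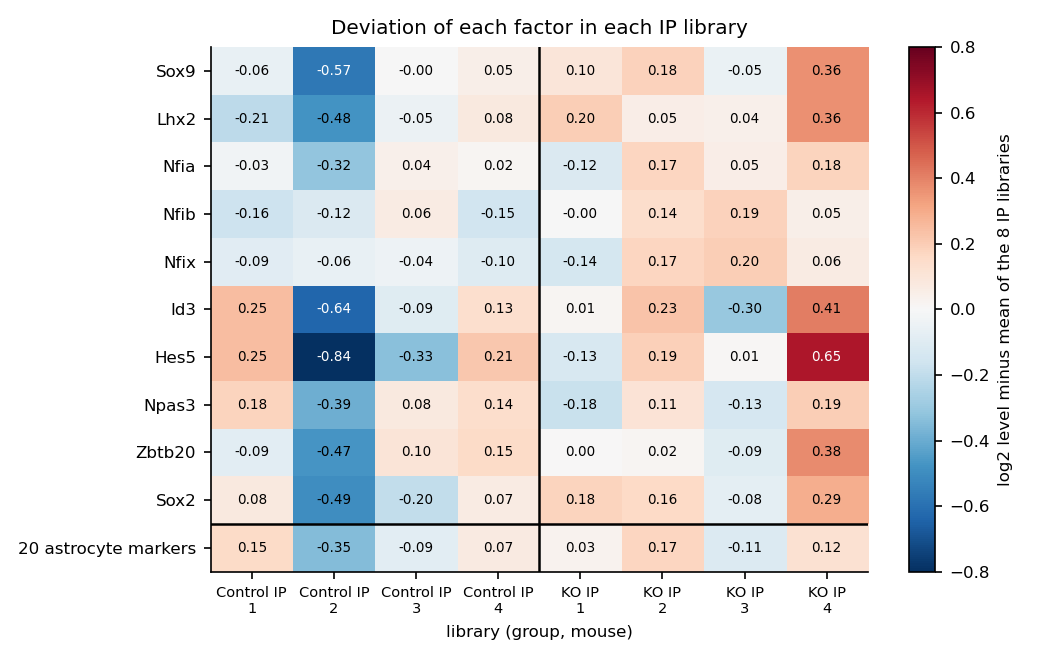
Log2 level of each factor and mean log2 level of 20 astrocyte markers (rows) in the 8 IP libraries (columns, by group and mouse), as the deviation from the mean over these libraries (colour and printed value). Control 2 is low in 10 of 10 factors, from -0.06 for Nfix to -0.84 for Hes5, and KO 4 is above the mean in 10 of 10.

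In Input 0 of 10 factors were called (beside 0.00969% of all genes, limma; 0 of 10 by edgeR and DESeq2), 8 were positive and 1, Nfix, had an unadjusted p under 0.05 (log2 -0.17, adjusted p = 0.700). The difference between the Crym KO effects in IP and in Input was called for 0 of 10, beside 0% of all genes, and had an unadjusted p under 0.05 for 1 of 10, Nfix (704 of all genes). It was called by neither edgeR nor DESeq2 for any of the 10. The IP and the interaction contrasts share the same IP libraries, so these counts are not separate evidence.

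Beyond the 10, other lists were read in Control IP against Input, where 36.7% of all genes were called higher and 38.5% lower, with a median of -0.02. Of the 36 other transcription factors of astrocytes and radial glia, 29 were higher and 1 lower, with a median of 0.87 on the log2 scale. The highest were Nr2e1 (1.84), Dbx2 (1.79) and Ppara (1.59), the first a nuclear receptor of neural stem cells. Nfic, the fourth NFI gene, was the one that was lower (-0.32, adjusted p = 0.00296, limma), and Hes1, a relative of Hes5, was at -0.14 (adjusted p = 0.254). The 16 transcription factors of striatal neurons and interneurons had a median of 0.31, with 9 higher, led by the interneuron factor Lhx6 (1.30), and 4 lower, down to Neurod2 (-1.82). The 9 of the oligodendrocyte lineage had a median of 0.35, with 5 higher and 1 lower, and the 19 of microglia, vessels and ependyma one of -2.96, from the ciliated-cell factor Foxj1 (2.30) to Spi1 of microglia (-5.65).

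**Figure D5:**
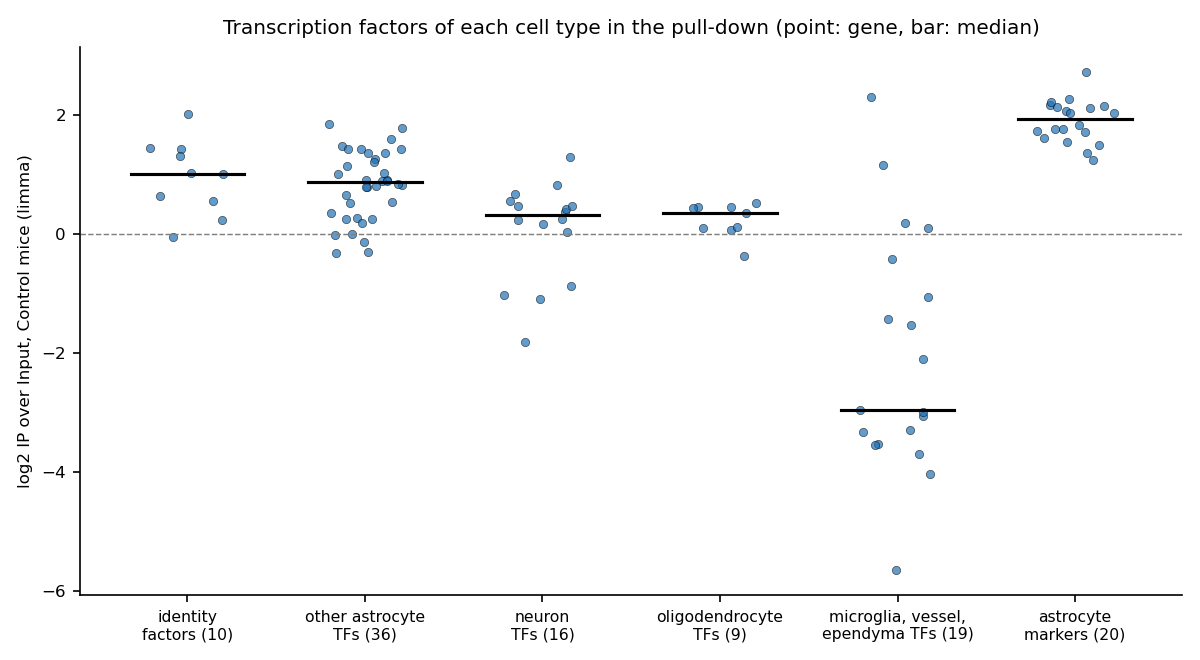
Log2 ratio of IP over Input in Control mice (y axis, limma) of the genes of 6 lists (x axis); each point is a gene and each bar the median of its list. Medians are 1.01 for the 10 factors, 0.87 for other astrocyte factors, 0.31 for neuron, 0.35 for oligodendrocyte and -2.96 for microglia, vessel and ependyma factors, and 1.93 for astrocyte markers.

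Of the 29 Notch pathway genes, to which Hes5 answers, 15 were higher and 10 lower in Control IP, the latter close to the 38.5% of all genes. The receptor Notch2 (1.41), the glycosyltransferase Lfng (1.5) and the target Hey2 (1.42) were highest, and Mfng (-2.40) and the endothelial ligand Dll4 (-2.23) lowest. Of the 26 BMP and SMAD genes, to which Id3 answers, 14 were higher and 6 lower (36.7% and 38.5% of all genes), with the receptor Bmpr1b (1.69), the antagonist Grem1 (1.51) and Id4 (1.42) highest and the ligand Bmp4 (-1.53) and the antagonist Chrd (-1.04) lowest. Among 6 genes described as controlled by SOX9 or NFI proteins in gliogenesis, 5 were higher, Gfap (2.72), Slc1a3 (2.13) and Mmd2 (1.51) most, while Apcdd1 was at 0.03 (adjusted p = 0.876). In Crym KO IP against Control IP none of the genes of these lists passed with limma or edgeR, and 7.67% of all genes had an unadjusted p under 0.05. The medians were 0.13 for the other astrocyte factors (10 of 36 with an unadjusted p under 0.05), 0.11 for neuron factors (2 of 16), 0.15 for those of microglia, vessels and ependyma (1 of 19), 0.08 for Notch genes (2 of 29), 0.08 for BMP genes (2 of 26) and 0.11 for the 6 controlled genes (0 of 6). The 9 oligodendrocyte factors had a median of -0.22, with 0 of 9 positive and 5 of 9 with an unadjusted p under 0.05. With a block for the replicate number 1 gene passed in this contrast, the Notch ligand Jag1, which was at 0.33 without it (adjusted p = 0.436, limma) and was named after its value was seen.

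Across the 16 libraries the genes whose log2 level followed each factor most closely, of 12023 genes with a mean of at least 5 CPM, were Emp2 for Sox9 (Pearson's r 0.998), Ttyh1 for Sox2 (0.996), Gpr146 for Npas3 (0.994), Mapre1 for Nfia (0.993), Pantr1 for Lhx2 (0.991), Fcgrt for Id3 (0.991), Kcnn3 for Zbtb20 (0.989), Pcyt1b for Nfib (0.954), Metrn for Hes5 (0.927) and Camk2g for Nfix (0.881). These values include the contrast of IP and Input, which all the libraries share and which was small for Nfib and Nfix. How much of each value it makes up was not tested. As deviations from the group means, the closest were Dag1 for Sox9 (0.969), Bcan for Id3 (0.963), Pygb for Sox2 (0.956), Col11a2 for Hes5 (0.946), Dock1 for Npas3 (0.943), Mapre1 for Nfia (0.930), Tacr1 for Zbtb20 (0.919), Apbb2 for Nfix (0.910), Ntrk2 for Lhx2 (0.906) and Ptgs1 for Nfib (0.888). Among the 10 factors, deviations of Id3 and Hes5 followed each other most (r 0.905), those of Sox9, Id3, Npas3 and Sox2 at 0.805 to 0.862, and Nfib followed Sox2 in the opposite sense (-0.402). They are given as a description over 16 libraries that share mice in pairs and, for the deviations, the low Control IP 2.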

How the data were processed

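The 16 RNA-seq libraries came from 8 mice, 4 per genotype, each with an IP and an Input. Whole-number read counts per gene were deposited by the authors in 1 table; per the submitters' processing notes base calls were converted with bcl2fastq 2.17, reads aligned with STAR to mm10 (GRCm38) and counted with HTSeq. A RefSeq gene model is named in the methods although identifiers are from Ensembl, and whether reads were counted by strand is not given in the sources used here. Symbols, positions and exon lengths came from GENCODE annotation of GRCm38, which held 48435 of 48795 identifiers, and the other 360 took 0.0765% of counts. Start regions came from RefSeq (GRCm38.p6).

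Counts were filtered with edgeR 4.0.16 (20645 genes kept, all 10 factors among them), scaled by TMM and fitted with limma-voom 3.58.1 in R 4.3.3, the study's test, with 4 group means and no covariate; two-sided moderated p-values were adjusted across the 20645 genes (Benjamini-Hochberg) and called under 0.05. Levels are CPM at the TMM-corrected library size, with 0.1 CPM added before logs. Exact tests used Python 3.11.15. The fits were tested on simulated data. Counting precision is set by 225 to 980 counts per library for Hes5, the factor with the fewest, and replicates were separate mice. Alternatives were edgeR's quasi-likelihood test, DESeq2 1.42.0, sample quality weights, other scalings, filters and pseudocounts, a replicate block, only the groups compared, and leaving out libraries or mice. The block was the replicate number for the Crym KO contrasts and the mouse for IP over Input and for the difference of the effects.

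By the labels, IP and Input of a number came from 1 mouse, which the correlations given in the Results do not bear out for Crym KO mouse 3. Between genotypes equal numbers were of equal sex by Xist and Ddx3y. Their deviations from group means correlated at 0.303 to 0.711 in IP and 0.327 to 0.548 in Input over all genes, above 0.1 in every pair (autosomes -0.04 to 0.65 and -0.19 to 0.30). Unequal numbers of the same sex correlated at 0.0454 to 0.611 in IP and 0.387 to 0.477 in Input over all genes. These ranges overlap, so a matching of mice beyond sex was not shown. Blocked values are printed where they change a call.

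Members, gene lists and tests were chosen with earlier results of these data known. All 10 factors, Crym and Rpl22 were always named, from each list the 3 highest and 3 lowest by IP over Input in Control whose higher group averaged 1 CPM or more, and the genes most like each factor; some of these are given as counts only.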

Additional observations from a re-analysis of the deposited data

Results flagged for a closer look

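Sox2 in Control Input 4 was at 28.0 CPM, apart from the other 3 libraries of that group at 23.4 to 24.1 CPM; the gap to the nearest was 0.842 of the whole range, more than Dixon's criterion allows for a group of 4. It was the 1 such case among 40 groups checked (10 factors in 4 groups), where chance gives about 1 in 20. Without Control mouse 4, Sox2 in Input differed between the genotypes with an exact permutation p under 0.05, as no factor did with all mice. That mouse held the only Control value to reach the Crym KO Input range of 26.4 to 27.7 CPM. Leaving it out separates the groups by itself, so no conclusion is drawn from that p. The ratio of IP over Input of Nfix was higher in Crym KO than in Control mice by 0.31 on the log2 scale (exact two-sided permutation p = 0.0286, 4 against 4 mice, the smallest possible), and it was 1 of 10 factors compared in this way, with no adjustment over them.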

How the results depend on the processing

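The counts of factors higher in IP stayed at 7 to 9 of 10 in Control and 9 or 10 in Crym KO over all alternatives run, 40 of 45 pairs differed under each of the alternatives run for them, and no alternative called a factor in a Crym KO contrast. Upper quartile scaling and library size alone ended the Control call of Nfib (0.08 and 0.05) and the Crym KO call of Nfix (0.10 and 0.07, adjusted p = 0.253 and 0.401) and called Nfix lower in Control (-0.21 and -0.24, adjusted p = 0.0212 and 0.00863); the median of all genes lay between -0.18 and -0.22. For these scalings the calls of all genes in Control were 5536 higher and 9847 lower, and 5123 and 10267, against 7585 and 7955. The Hes5 ratio in Control passed in 13 alternatives and did not pass in the other 21. It was 0.39 to 0.80 with 1 library or mouse left out, 0.80 without Control IP 2 (adjusted p = 0.00293).

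The block for the replicate number moved the genes past the threshold from 7 to 43 in IP and from 2 to 15 in Input, and called none of the 10 factors. The block for the mouse, used for IP over Input, gave 0.60 for Hes5 in Control and changed no other call of the 10 factors. DESeq2 gave 71 genes in IP, 47 in Input and 2 for the difference of the effects (0 with limma), and the fit of only the groups compared gave 2 and 0. Without the filter Input had 7 genes, and with at least 10 counts in every library of 1 group 1 gene. With 1 library left out these counts were 6 to 36 in IP (36 without Control IP 4, 11 without Control IP 3), 0 to 3 in Input and 0 or 1 for the difference, and with both libraries of a mouse left out 5 to 61 in IP (61 without Control mouse 4), 0 to 5 in Input (5 without Control mouse 3) and 0 or 1. Of the list genes DESeq2 called 4 in IP (Abcb1a, C1qa, Tubb3 and Vtn, no transcription factor among them) and the replicate block 1 (Jag1), against 0. In Input the progenitor marker Zic1 (-1.04, adjusted p = 0.121 with limma) was called by edgeR, by DESeq2 together with Zic4, by the replicate block, and without Control Input 3 or Control mouse 3.

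Exact tests of the IP level gave 0 factors under 0.05 and 0 or 1 with a mouse left out (Nfib without Control 3, Lhx2 without Control 4, Nfix without Crym KO 1). In Input they gave 0, and 1 (Sox2) without Control mouse 4. Relative to astrocyte markers 1 factor, Sox2, fell under 0.05 with the median of the markers (0.16) or without Slc1a3, Gfap and S100b (0.16), and 0 or 1 with a library left out (Sox9 without Control IP 3, Sox2 without Crym KO IP 2). The cause of these shifts was not tested.

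Signs turned only for differences that no alternative called. Npas3 in IP was -0.013 with edgeR, -0.010 with DESeq2, -0.012 with quality weights, -0.020 with library size alone, -0.00030 with upper quartile scaling, -0.00072 with the stricter filter, -0.0050 with the replicate block and -0.0021 with only the groups compared, and -0.13 to 0.062 with 1 library left out. With 1 library left out the Crym KO difference ran from -0.0066 to 0.31 for Id3 in IP and, in Input, from -0.056 to 0.13 for Id3, -0.021 to 0.23 for Hes5 and -0.0085 to 0.069 for Lhx2. The difference of the effects ran from -0.074 to 0.25 for Id3, -0.042 to 0.15 for Npas3 and -0.091 to 0.11 for Zbtb20. For Zbtb20 it was -0.026 with quality weights, -0.094 without Control mouse 2 and -0.060 without Crym KO mouse 4, and for Npas3 -0.0027 without Control mouse 2. IP differences of the 10 factors had 95% intervals 0.229 (Nfib) to 0.905 (Hes5) wide, which limits how small a change could be detected at 4 mice per group.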
